A study of Mus musculus with 10 samples.

Results

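The integrin and laminin genes were taken from the deposited table by symbol, as every integrin alpha or beta name and every laminin alpha, beta or gamma chain name, and were kept where 2 or more libraries reached a value of 10. All 38 symbols that matched also passed the limit on values, 27 with integrin names and 11 with laminin names, among 16290 genes in the table and 15694 genes above that limit. One of the 27, Itgbl1, encodes a secreted integrin beta-like protein and not a receptor subunit. The study sequenced poly-A RNA from mammary epithelial cells of FVB mice to find genes that change when a protein arginine methyltransferase is overexpressed. The cells had been freed from dissected mammary glands with enzymes and enriched by brief spins. The 4 genotypes were NIC (2 libraries), NIC-Prmt1 (3 libraries), NIC-Carm1 (3 libraries) and NIC-Prmt6 (2 libraries). All 10 libraries carry the NIC genotype, so the NIC group is the control for the added transgene and not a wild-type group. The labels do not spell out NIC, name the promoters of the transgenes, give the age of the mice, or say whether the libraries of a group came from separate animals. The p-values below therefore measure the spread between these libraries, which may be technical.

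Laminins are cross-shaped proteins of the basement membrane, the thin matrix sheet under epithelium and around vessels, muscle and fat, and each is built from an alpha, a beta and a gamma chain. Integrins are membrane receptors made of an alpha and a beta subunit that hold cells to laminins, collagens, fibronectin or other cells and relay signals from them. In the mammary gland, the basal and myoepithelial cells deposit and grip the epithelial basement membrane through laminin-332 and the alpha6 beta4 and alpha3 beta1 integrins, while fibroblasts, pericytes and endothelial cells make other laminin chains.

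The recovered reads ranged from 21589274 to 30260921 per library. A pair of NIC-Prmt6 libraries (replicates 1 and 2) and a pair of NIC-Carm1 libraries (replicates 2 and 3) hardly differed. The chi-square of their reads over genes, divided by its degrees of freedom, was 2.44 and 2.69, against 28 to 105 for the other pairs within a group. Of the 3 targeted genes, Prmt6 was higher in its own group (872.9 and 909.1) than in the other libraries (223.7 to 451.2), Carm1 was lower in NIC (1556 and 1567) than in all PRMT libraries (2025 to 2479), and Prmt1 overlapped between the groups (2362 to 3258). Summed luminal markers reached 6226 to 11703 CPM (recovered reads scaled to library size) and basal markers 1804 to 6919 CPM, so mammary epithelial RNA was present in every library. Fibroblast markers reached 3123 to 12604 CPM and endothelial markers 1067 to 2716 CPM. In these bulk samples, fewer cells of a type and less RNA per cell cannot be told apart. NIC-Prmt1 replicate 1 also held 986.8 CPM of skin keratinocyte markers, against at most 88.3 in any other library.

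Laminin genes stood higher in NIC-Prmt1 and NIC-Prmt6 than in NIC, and the integrin genes moved in both directions. Against NIC, 16 of the 38 genes were higher and 3 lower in NIC-Prmt1, where 15.2% of all genes tested were higher, 14.4% lower and 29.6% called in either direction. In NIC-Prmt6, 17 were higher and 6 lower (all genes 19.0%, 17.8% and 36.8%). In NIC-Carm1, 2 were higher and 3 lower (all genes 6.65%, 9.36% and 16.0%). The called shares of the 38 genes were 50% in NIC-Prmt1, 60.5% in NIC-Prmt6 and 13.2% in NIC-Carm1. The median log2 fold change of the 38 genes was 0.38 in NIC-Prmt1, 0.40 in NIC-Prmt6 and -0.02 in NIC-Carm1, beside a median of 0.00, -0.01 and 0.00 over all genes tested. Among the 11 laminin chains, 9 were higher in NIC-Prmt1, 7 in NIC-Prmt6 and 1 in NIC-Carm1, and the other 2, 4 and 10 did not pass the test. Among the 27 integrin genes, 7 were higher and 3 lower in NIC-Prmt1, 10 higher and 6 lower in NIC-Prmt6, and 1 higher and 3 lower in NIC-Carm1. These 3 comparisons share the 2 NIC libraries. Between transgenic groups, 17 of the 38 genes were higher and 4 lower in NIC-Prmt1 than in NIC-Carm1 (all genes 14.9%, 11.8% and 26.8%), 15 higher and 5 lower in NIC-Prmt6 than in NIC-Carm1 (20.9%, 18.4% and 39.2%), and 4 higher and 10 lower in NIC-Prmt1 than in NIC-Prmt6 (2.54%, 4.94% and 7.49%). With each nearly identical pair averaged to 1 library, 9 genes were higher and 1 lower in NIC-Prmt1, 10 and 0 in NIC-Prmt6 (limma, with 4 lower at an unadjusted p under 0.05), and 1 and 1 in NIC-Carm1. On the recovered reads of all 10 libraries, edgeR and DESeq2 each placed 6 genes lower in NIC-Prmt6. The shares of all genes given above belong to the limma fit of the 10 separate libraries. None was computed for the averaged, edgeR or DESeq2 fits, so their counts cannot be set beside those shares.

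**Figure D1:**
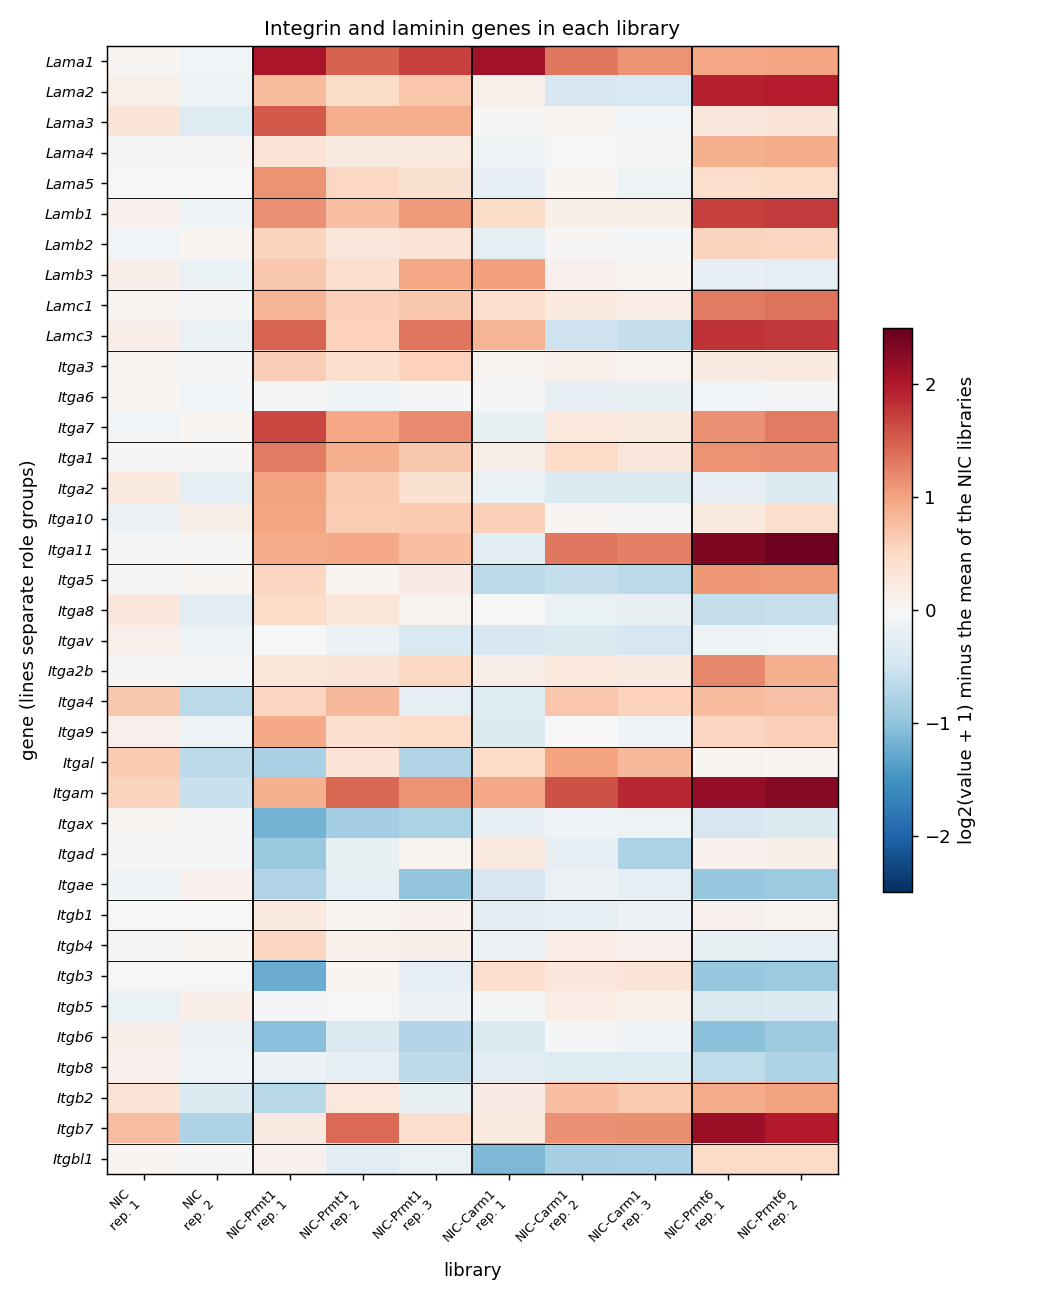
Values of 37 of the 38 genes in the 10 libraries, each row shown as log2(value + 1) minus the mean of the 2 NIC libraries, ordered by role. Most laminin rows are above the NIC mean in the NIC-Prmt1 and NIC-Prmt6 columns, and Lama1 is above it in all 8 PRMT libraries.

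**Figure D2:**
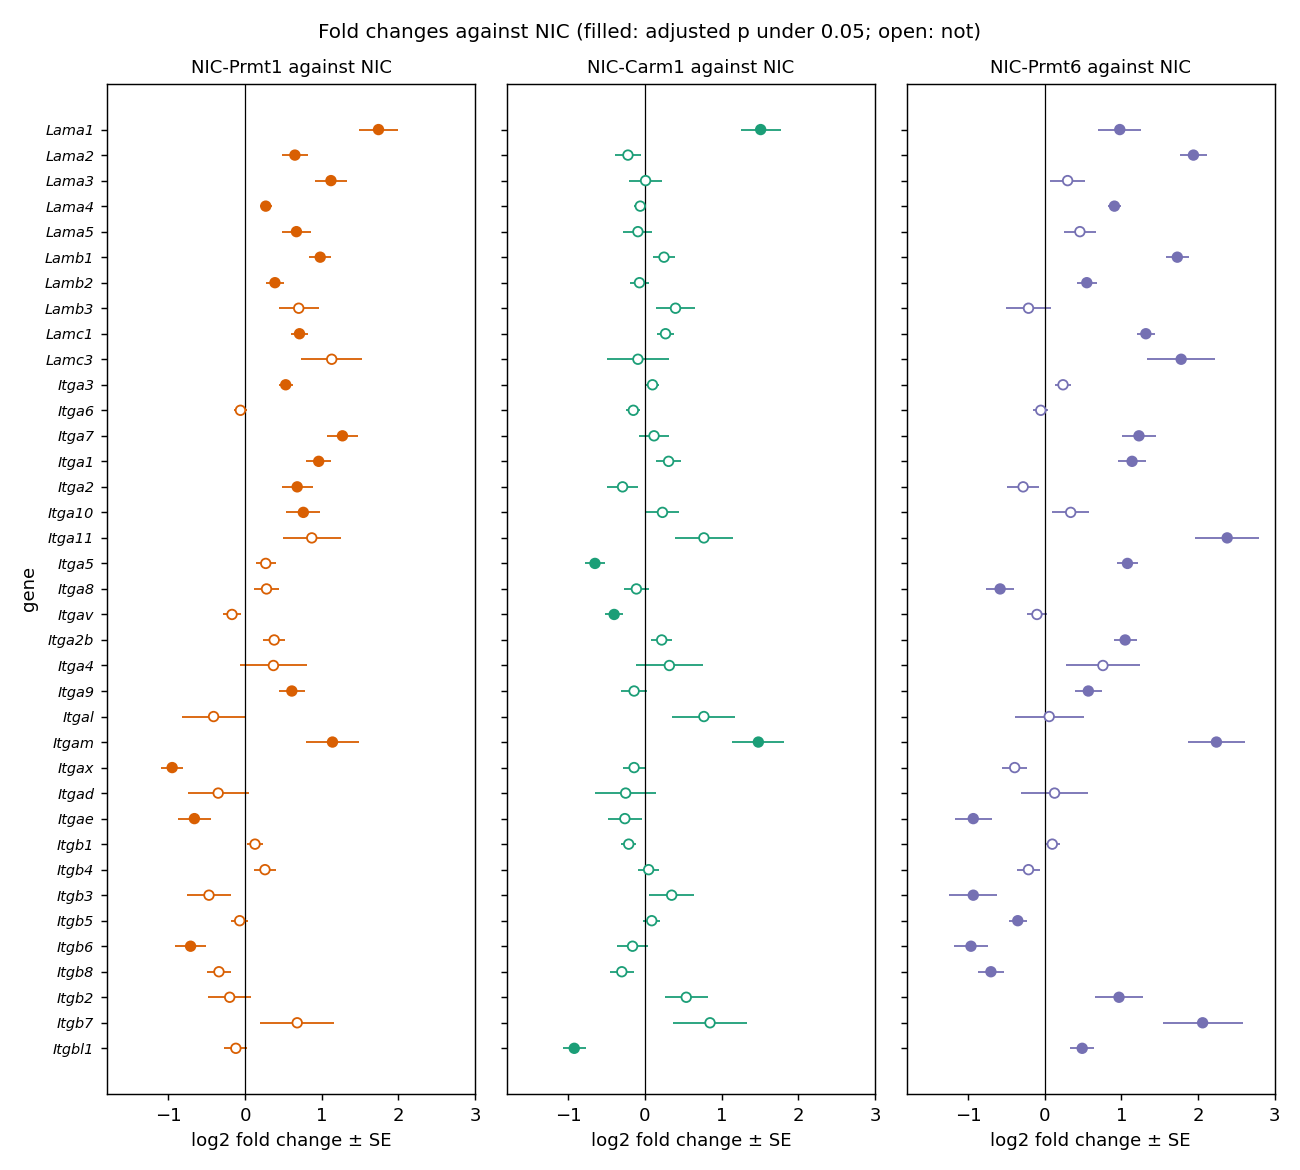
Log2 fold change against NIC with its standard error for 37 of the 38 genes in NIC-Prmt1, NIC-Carm1 and NIC-Prmt6, ordered by role, with filled points for genes past the adjusted p threshold of 0.05. The NIC-Prmt6 points of Lama2, Lamb1, Lamc1 and Itga11 lie to the right of 1, and most NIC-Carm1 points lie near 0.

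The chains of laminin-211 and laminin-411 were highest in NIC-Prmt6. Lama2, the alpha chain of muscle, nerve and stromal laminins (chromosome 10, 26980036 to 27619758, minus strand, GRCm38), had normalised read counts of 2600.5 and 2189.5 in the NIC libraries, 4128, 3293 and 3863 in NIC-Prmt1, 2609.7, 1785 and 1839.7 in NIC-Carm1, and 9084 and 9285 in NIC-Prmt6. Every NIC-Prmt6 value was far above every other library, and the NIC-Prmt1 values lay above the NIC and NIC-Carm1 values. The log2 fold change against NIC was 1.94 ± 0.18 (adjusted p = 0.000122) in NIC-Prmt6, 0.65 ± 0.17 (adjusted p = 0.0174) in NIC-Prmt1 and -0.22 ± 0.17 (adjusted p = 0.398) in NIC-Carm1. For Lama2, the NIC-Prmt1 call ended without NIC replicate 2 (adjusted p = 0.125). Lama4, the alpha chain of vessel walls and fat (chromosome 10, 38965515 to 39110188, plus strand), had normalised read counts of 2503 and 2616 in the NIC libraries, 3228, 3003 and 3048 in NIC-Prmt1, 2328, 2554 and 2508 in NIC-Carm1, and 4739.6 and 4871 in NIC-Prmt6. The order of the groups was the same, with smaller steps and no overlap of NIC-Prmt6 or NIC-Prmt1 with NIC. Lama4 differed from NIC by 0.91 ± 0.09 (adjusted p = 0.000139) in NIC-Prmt6, 0.27 ± 0.08 (adjusted p = 0.0305) in NIC-Prmt1 and -0.06 ± 0.08 (adjusted p = 0.682) in NIC-Carm1. For Lama4, the NIC-Prmt1 call ended without NIC replicate 1 or 2 or NIC-Prmt1 replicate 1 or NIC-Carm1 replicate 3 or NIC-Prmt6 replicate 1 or 2, in a fit of the 2 groups alone and with the nearly identical libraries averaged (adjusted p from 0.051 to 0.134).

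The shared partner chains beta1 and gamma1 were also highest in NIC-Prmt6, followed by NIC-Prmt1, but with NIC-Carm1 above NIC. Lamb1, the beta chain paired with most alpha chains (chromosome 12, 31265234 to 31329644, plus strand), had normalised read counts of 3399 and 2918 in the NIC libraries, 6918, 5305 and 6588 in NIC-Prmt1, 4336, 3494 and 3501 in NIC-Carm1, and 10277 and 10618 in NIC-Prmt6. The 3 groups with a gain in mean lay NIC-Carm1 below NIC-Prmt1 below NIC-Prmt6, and none of the 3 overlapped with NIC. The Lamb1 log2 fold change against NIC was 1.73 ± 0.15 (adjusted p = 0.0001) in NIC-Prmt6 and 0.98 ± 0.14 (adjusted p = 0.00151) in NIC-Prmt1, and 0.25 ± 0.14 (adjusted p = 0.244) in NIC-Carm1, which did not pass. Lamc1, the common gamma chain (chromosome 1, 153218922 to 153332786, minus strand), had normalised read counts of 6522 and 6154 in the NIC libraries, 11489, 9519.6 and 10165 in NIC-Prmt1, 8368, 7454 and 7211 in NIC-Carm1, and 15516 and 16180.0 in NIC-Prmt6. All 8 PRMT libraries exceeded both NIC libraries, and the NIC-Prmt6 values stood above all others. Lamc1 differed from NIC by 1.32 ± 0.12 (adjusted p = 0.000104) in NIC-Prmt6, 0.71 ± 0.11 (adjusted p = 0.00204) in NIC-Prmt1 and 0.27 ± 0.11 (adjusted p = 0.113) in NIC-Carm1. The calls of Lama2, Lama4, Lamb1 and Lamc1 in NIC-Prmt6, and of Lamb1 and Lamc1 in NIC-Prmt1, held in all 20 alternative fits.

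Lamc3, a gamma chain with a narrow range of tissues (chromosome 2, 31887291 to 31946539, plus strand), had normalised read counts of 504 and 396 in the NIC libraries, 1234, 671 and 1128 in NIC-Prmt1, 803, 312 and 297 in NIC-Carm1, and 1556 and 1517 in NIC-Prmt6. Both NIC-Prmt6 libraries exceeded all others, and NIC-Carm1 replicate 1 stood apart from, and above, the other NIC-Carm1 libraries. Its log2 fold change against NIC was 1.78 ± 0.44 (adjusted p = 0.0108) in NIC-Prmt6, and 1.13 ± 0.40 (adjusted p = 0.0565) in NIC-Prmt1, short of the threshold. The NIC-Prmt1 difference was called in 5 of the 20 alternative fits. For Lamc3, the NIC-Prmt6 call ended without NIC replicate 2 or NIC-Prmt6 replicate 1 or 2 and with the nearly identical libraries averaged (adjusted p from 0.0567 to 0.0724). Stromal and vascular markers moved in the same groups. All 10 fibroblast markers were higher in NIC-Prmt6 than in NIC, with sums of 3123 to 3863 CPM in NIC and 12588 to 12604 CPM in NIC-Prmt6, and 7 of 10 were higher in NIC-Prmt1 (5404 to 7078 CPM). All 10 endothelial markers were higher in NIC-Prmt6 (2692 to 2710 CPM) and in NIC-Prmt1 (1938 to 2716 CPM) than in NIC (1067 to 1278 CPM). All 6 pericyte markers were higher in NIC-Prmt6 (1111 to 1151 CPM) and in NIC-Prmt1 (815.2 to 1270.2 CPM) than in NIC (355.9 to 381.9 CPM). In NIC-Carm1, 1 fibroblast marker was lower and 3 pericyte markers were higher, and limma called no endothelial marker (2 at an unadjusted p under 0.05, none by edgeR, 1 by DESeq2). Of 6 adipocyte markers, 1, Fabp4, was higher in NIC-Prmt6 and in NIC-Prmt1 and 1, Lep, was lower in NIC-Carm1. The adipocyte sum was 251.4 to 301.3 CPM in NIC, 611.9 to 943.6 CPM in NIC-Prmt1, 341.7 to 365.0 CPM in NIC-Carm1 and 1099.9 to 1128.5 CPM in NIC-Prmt6. In NIC-Prmt1, however, Adipoq, Plin1, Lep, Cidec and Retn differed from NIC by -1.22, -0.23, -0.18, -0.63 and -1.69, none called. Adipoq, Plin1, Cidec and Retn differed by -0.95, -0.44, -0.62 and -1.86 in NIC-Carm1, none called. In NIC-Prmt6, Adipoq, Plin1, Lep, Cidec and Retn differed by 1.73, 2.16, 1.67, 1.9 and 1.25, none called. Of 6 Schwann cell markers, 3 were lower in NIC-Prmt6 (Sox10, Mbp and S100b), 3 in NIC-Carm1 and 1 in NIC-Prmt1, with sums of 1278.1 to 1457.3 CPM in NIC, 1236.9 to 2074.9 CPM in NIC-Prmt1, 763.5 to 1002.0 CPM in NIC-Carm1 and 782.0 to 783.6 CPM in NIC-Prmt6. Of 6 skeletal muscle markers, 1, Myh4, was higher in each of the 3 groups, and the sums were low, at 9.71 to 14.5 CPM in NIC and 13.7 to 70.2 CPM in the PRMT libraries. None of these markers was at 0 in any library, and their part in the laminin values was not tested.

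The promoters of 3 genes that rose in NIC-Prmt6 and of Lama5, the most abundant alpha chain, are shown. They allow the letters upstream of each RefSeq start to be compared. They are RefSeq sequence of GRCm38.p6, read 5′ to 3′ on the gene's strand over 150 bases up to the RefSeq start, with Lamb1 kept to 91 bases where the window met an exon. Capitals mark GGGCGG or its reverse complement CCGCCC, the box bound by Sp1.
Lama2 promoter, chr10:27616943-27617092, minus strand: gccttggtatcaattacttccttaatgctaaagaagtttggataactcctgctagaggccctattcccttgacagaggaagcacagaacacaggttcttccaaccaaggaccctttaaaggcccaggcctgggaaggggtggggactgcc
Lamb1 promoter, chr12:31265143-31265233, plus strand: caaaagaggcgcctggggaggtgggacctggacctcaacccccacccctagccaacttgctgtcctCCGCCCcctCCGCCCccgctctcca
Lama5 promoter, chr2:180225860-180226009, minus strand: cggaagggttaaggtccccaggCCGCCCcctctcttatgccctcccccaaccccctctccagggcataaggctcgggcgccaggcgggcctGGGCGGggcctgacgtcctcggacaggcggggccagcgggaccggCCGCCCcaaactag
Itga5 promoter, chr15:103366792-103366941, minus strand: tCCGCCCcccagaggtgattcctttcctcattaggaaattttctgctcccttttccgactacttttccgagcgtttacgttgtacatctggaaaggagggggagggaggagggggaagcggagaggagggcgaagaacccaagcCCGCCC
The Lama2 window held no such box and had a GC content of 50.7%. The Lamb1 window held 2 (69.2% GC), the Lama5 window 3 (73.3% GC) and the Itga5 window 2 (56.7% GC). The Lama2 window ends at a RefSeq start within the gene as placed here, which begins at 27619758 on the minus strand. It therefore does not show the letters upstream of that outer start, whereas the Lamb1, Lama5 and Itga5 windows lie upstream of their genes. The 6-letter GGGCGG was searched on both strands in windows of 150 bases, and 28.6% of 32851 RefSeq promoters held it. Of 24 integrin and laminin genes with an entry in that table, 8 held it, namely Itga3, Itga4, Itga5, Itgam, Itgb5, Itgbl1, Lama5 and Lamb1. TGANTCA, the AP-1 box, was held by 4.24% of all windows and by 1 of the 24, Itgax. TATAAA was held by 7.57% of all windows and by none of the 24. The 3 motifs do not contain each other, and the matches describe the letters of these windows alone.

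Lama5 and Lamb2, chains of the laminins of mature epithelial and vascular basement membranes, had the highest counts per length of their classes. Lama5 (chromosome 2, 180176373 to 180225859, minus strand) had normalised read counts of 17149 and 16894 in the NIC libraries, 36859.9, 24515 and 22056 in NIC-Prmt1, 14732, 17629 and 15661 in NIC-Carm1, and 22995 and 23849.5 in NIC-Prmt6. NIC-Prmt1 replicate 1 was the highest library by a wide margin, and all NIC-Prmt1 and NIC-Prmt6 values lay above NIC. The log2 fold change against NIC was 0.67 ± 0.19 (adjusted p = 0.0264) in NIC-Prmt1, 0.46 ± 0.21 (adjusted p = 0.112) in NIC-Prmt6 and -0.09 ± 0.19 (adjusted p = 0.783) in NIC-Carm1. The NIC-Prmt6 difference was called in 2 of the 20 alternative fits. For Lama5, the NIC-Prmt1 call ended without NIC replicate 1 or 2, in a fit of the 2 groups alone and with the nearly identical libraries averaged (adjusted p from 0.0699 to 0.116). Lamb2 (chromosome 9, 108479736 to 108490530, plus strand) had normalised read counts of 10497 and 11464 in the NIC libraries, 16028, 13288 and 13825 in NIC-Prmt1, 9415, 11219.6 and 10762 in NIC-Carm1, and 16114 and 15977 in NIC-Prmt6. NIC-Prmt1 and NIC-Prmt6 did not overlap with NIC, whereas NIC-Carm1 did. Lamb2 was higher than in NIC by 0.55 ± 0.13 (adjusted p = 0.00879) in NIC-Prmt6 and by 0.39 ± 0.12 (adjusted p = 0.0329) in NIC-Prmt1, and differed by -0.07 ± 0.12 (adjusted p = 0.718) in NIC-Carm1. For Lamb2, the NIC-Prmt6 call ended without NIC replicate 1 or NIC-Prmt6 replicate 1 or 2 and with the nearly identical libraries averaged (adjusted p from 0.0505 to 0.0969), and the NIC-Prmt1 call ended without NIC replicate 1 or 2 or NIC-Prmt1 replicate 1 or NIC-Carm1 replicate 3 or NIC-Prmt6 replicate 1 or 2, in a fit of the 2 groups alone and with the nearly identical libraries averaged (adjusted p from 0.0523 to 0.164).

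Lama1, the alpha chain of the embryonic laminin-111 (chromosome 17, 67697259 to 67822647, plus strand), was the laminin gene that passed the test against NIC in all 3 transgenic groups. Its normalised read counts were 473 and 432 in the NIC libraries, 1859.7, 1259.5 and 1488 in NIC-Prmt1, 1949.7, 1131 and 981 in NIC-Carm1, and 886 and 901 in NIC-Prmt6. All 8 PRMT libraries lay above both NIC libraries, the NIC-Prmt6 values were the lowest of the 8, and the 2 highest values were NIC-Carm1 replicate 1 and NIC-Prmt1 replicate 1. The log2 fold change was 1.74 ± 0.26 (adjusted p = 0.00173) in NIC-Prmt1, 1.51 ± 0.26 (adjusted p = 0.0055) in NIC-Carm1 and 0.98 ± 0.28 (adjusted p = 0.0212) in NIC-Prmt6. The first 2 calls held in all 20 alternative fits, and for Lama1 the NIC-Prmt6 call ended without NIC replicate 1 or 2 or NIC-Prmt6 replicate 1 or 2 and with the nearly identical libraries averaged (adjusted p from 0.0584 to 0.103). Between transgenic groups, Lama1 differed by 0.23 ± 0.23 (adjusted p = 0.486) for NIC-Prmt1 against NIC-Carm1 and by -0.53 ± 0.26 (adjusted p = 0.123) for NIC-Prmt6 against NIC-Carm1.

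Lama3 and Lamb3 encode chains of laminin-332, the anchoring laminin of basal epithelial cells, and Lama3 was higher in NIC-Prmt1 than in NIC. Lama3, the alpha chain, had normalised read counts of 1894 and 1218 in the NIC libraries, 4421, 2868 and 2836 in NIC-Prmt1, 1556, 1584 and 1446 in NIC-Carm1, and 1846 and 1889 in NIC-Prmt6. The 3 NIC-Prmt1 libraries lay above all 7 others. Lama3 differed from NIC by 1.12 ± 0.21 (adjusted p = 0.00499) in NIC-Prmt1, 0.30 ± 0.23 (adjusted p = 0.341) in NIC-Prmt6 and 0.01 ± 0.21 (adjusted p = 0.985) in NIC-Carm1. Lamb3, the beta chain (chromosome 1, 193207699 to 193343878, plus strand), had normalised read counts of 2292 and 1811 in the NIC libraries, 3242, 2777 and 3990.1 in NIC-Prmt1, 4137, 2205 and 2116 in NIC-Carm1, and 1767 and 1749 in NIC-Prmt6. The NIC-Prmt1 values lay above NIC, but NIC-Carm1 replicate 1 was the highest library and its group spread widely. Lamb3 did not pass in any comparison with NIC, at 0.70 ± 0.26 (adjusted p = 0.0724) in NIC-Prmt1, 0.40 ± 0.26 (adjusted p = 0.338) in NIC-Carm1 and -0.21 ± 0.29 (adjusted p = 0.598) in NIC-Prmt6. In NIC-Prmt1, 3 of the 20 alternative fits called Lamb3, and in the other groups none did. Tested directly, NIC-Prmt1 stood above NIC-Prmt6 by 0.82 ± 0.21 (adjusted p = 0.045) for Lama3 and 0.91 ± 0.26 (adjusted p = 0.0664) for Lamb3. The Lama3 call between these groups ended when either NIC-Prmt6 library was left out and when the nearly identical libraries were averaged (adjusted p from 0.055 to 0.376 over the alternatives that ended it).

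Basal and myoepithelial markers moved with Lama3 in NIC-Prmt1. Of the 10 markers, 9 were higher in NIC-Prmt1 than in NIC, 2 in NIC-Prmt6 and none in NIC-Carm1 by limma (4 changed at an unadjusted p under 0.05, none by edgeR, 1 by DESeq2). Their sums were 1804 to 2110 CPM in NIC, 3955 to 6919 CPM in NIC-Prmt1, 2025 to 2232 CPM in NIC-Carm1 and 2563 to 2565 CPM in NIC-Prmt6, and none was at 0 in any library. Of 7 skin keratinocyte markers tested, 3 were higher in NIC-Prmt1, with 986.8 CPM in replicate 1, 88.3 CPM in replicate 3 and 6.77 CPM in replicate 2. Krt25, Krt77, Lor and Krtdap of that list were at 0 in some libraries. Without NIC-Prmt1 replicate 1, the Lama3 call against NIC held, and the part of either marker list in the Lama3 values was not tested.

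**Figure D3:**
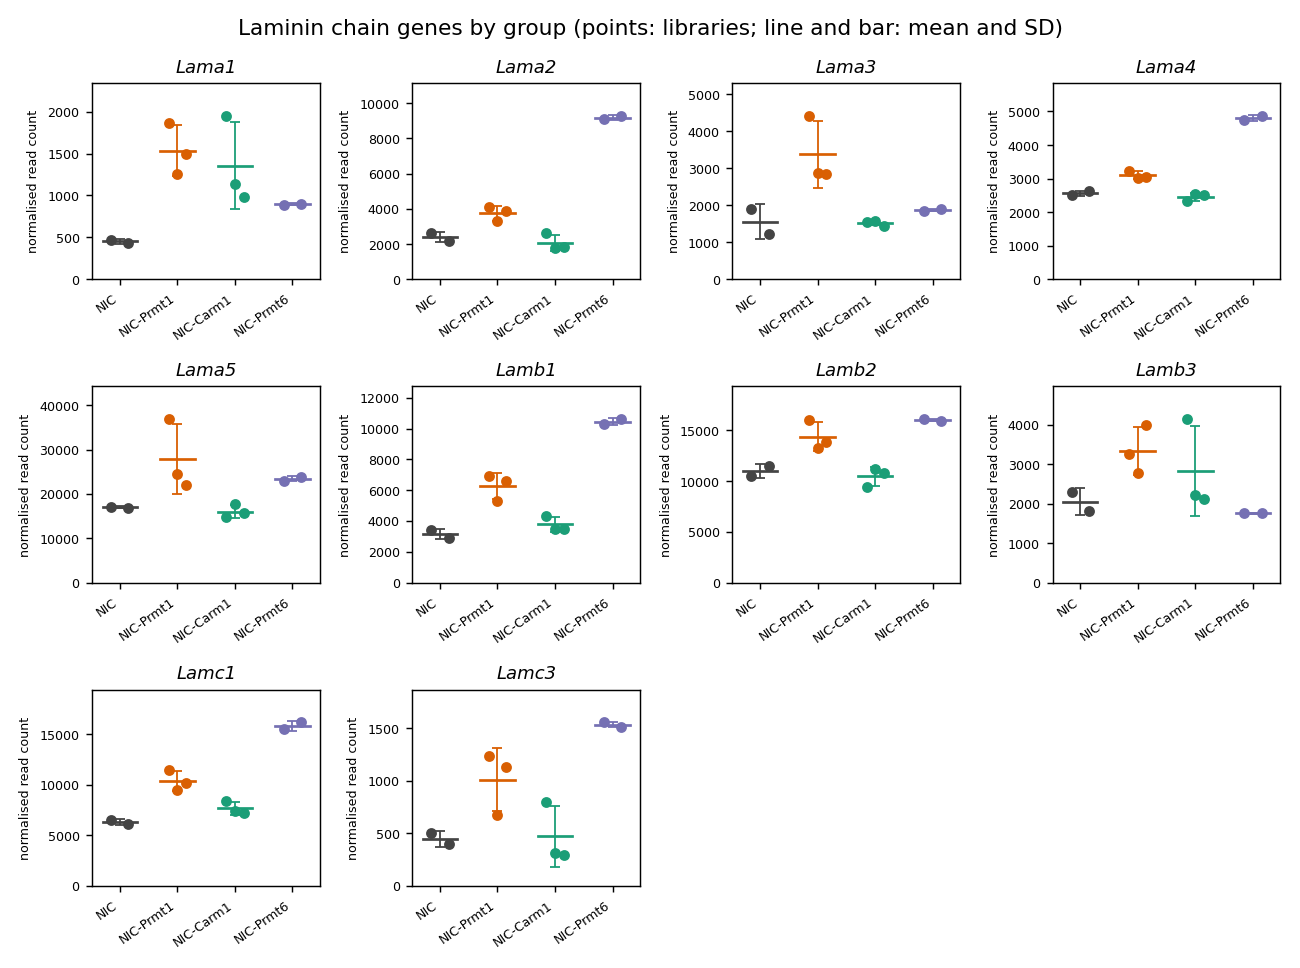
Normalised read counts of 10 laminin chains by group, with a point for each library and the mean and SD of each group. Lama2, Lama4, Lamb1 and Lamc1 are highest in NIC-Prmt6, and Lama3 is highest in NIC-Prmt1.

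The make-up of the laminin pool was compared per length, as each chain's normalised read count per kilobase of exon and its share of the class sum in a library. Lama5 held 50.6% to 67.5% of the alpha class in the 10 libraries. Lama2 held 23.2% and 23.0% in the NIC-Prmt6 libraries and 7.52% to 12.1% elsewhere. In the beta class, Lamb1 held 35.4% and 36.4% in NIC-Prmt6 against 17.3% to 25.8% elsewhere, and Lamb3 held 6.94% and 6.83% against 12.2% to 25.1%. The shares of Lama2 and Lamb1 in NIC-Prmt6 did not overlap with those in any other group, and those of Lamb3 lay below all others. The NIC-Prmt6 libraries are a nearly identical pair that may stand for the same sample. A lack of overlap with this pair, in shares or in totals, may therefore not be a replicated difference. No rate of such non-overlap over other genes is given here. The summed alpha class came to 2298 to 2411 counts per kilobase in NIC, 3255 to 4798.0 in NIC-Prmt1, 2215 to 2419 in NIC-Carm1 and 3994 to 4117 in NIC-Prmt6. The alpha totals of NIC-Prmt1 and NIC-Prmt6 overlapped, as did their Lamb2 shares, while their shares of each alpha chain, of Lamb1 and of Lamb3 did not. Their beta totals did not overlap, at 3810 to 4664 in NIC-Prmt1 and 4966 to 4997 in NIC-Prmt6.

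**Figure D4:**
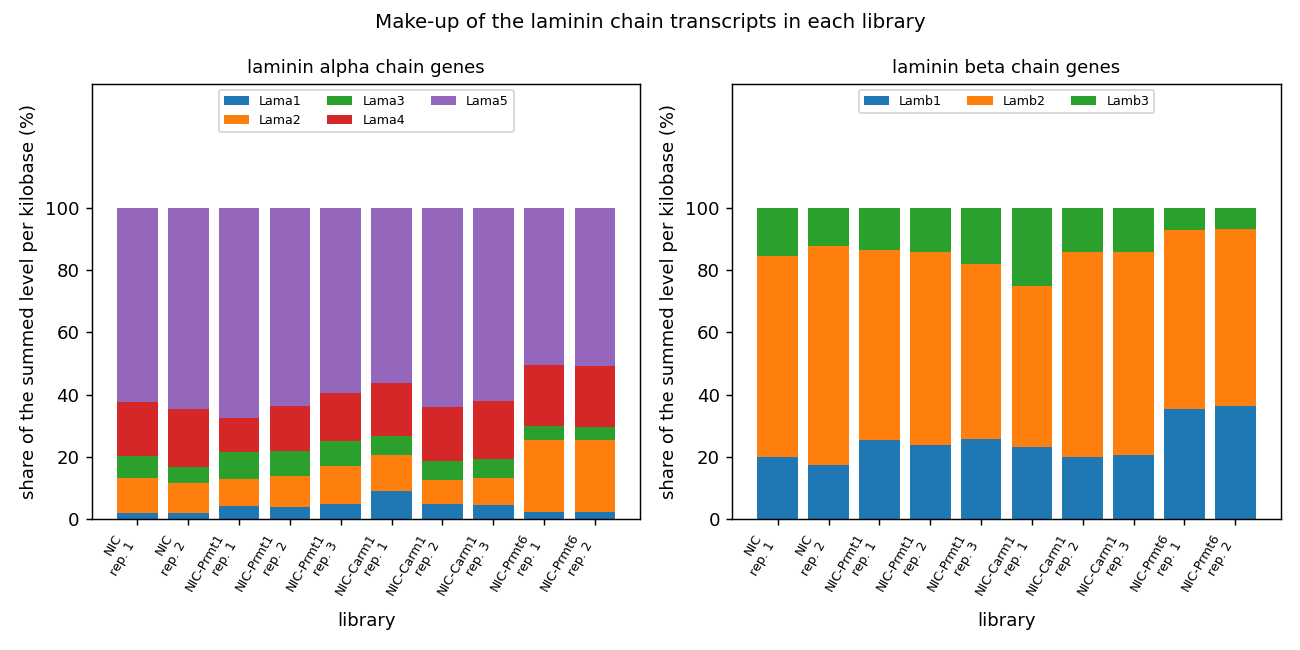
Share of each alpha and beta chain in its class, from counts per kilobase of exon, in each of the 10 libraries. Lama2 and Lamb1 take larger shares, and Lamb3 a smaller one, in both NIC-Prmt6 libraries, a nearly identical pair, than in the other 8.

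Among the laminin-binding integrins, Itga7 and Itga3 changed and Itga6 did not pass. Itga7, the alpha7 subunit of muscle and vascular smooth muscle (chromosome 10, 128933818 to 128958282, plus strand), had normalised read counts of 776 and 856 in the NIC libraries, 2607, 1584 and 1854 in NIC-Prmt1, 719.7, 984 and 971 in NIC-Carm1, and 1807 and 2014 in NIC-Prmt6. NIC-Prmt1 and NIC-Prmt6 did not overlap with NIC or NIC-Carm1. Its log2 fold change against NIC was 1.27 ± 0.20 (adjusted p = 0.00237) in NIC-Prmt1, 1.23 ± 0.22 (adjusted p = 0.00269) in NIC-Prmt6 and 0.12 ± 0.20 (adjusted p = 0.74) in NIC-Carm1. Itga3, whose alpha3 subunit binds laminin-332 and laminin-511 (chromosome 11, 95044474 to 95076801, minus strand), had normalised read counts of 3049 and 2814 in the NIC libraries, 4489.6, 3879.9 and 4349 in NIC-Prmt1, 3108, 3195 and 3119 in NIC-Carm1, and 3418 and 3489 in NIC-Prmt6. The 3 NIC-Prmt1 values exceeded all 7 others, by 0.53 ± 0.09 (adjusted p = 0.00289) over NIC. Itga3 differed from NIC by 0.24 ± 0.10 (adjusted p = 0.0778) in NIC-Prmt6 and 0.10 ± 0.09 (adjusted p = 0.471) in NIC-Carm1. The calls of Itga7 in NIC-Prmt1 and NIC-Prmt6 and of Itga3 in NIC-Prmt1 held in all 20 alternative fits.

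The alpha6 beta4 integrin is the receptor of the hemidesmosome, which ties basal cells to laminin-332. Itga6 (chromosome 2, 71745616 to 71858416, plus strand) had normalised read counts of 9469 and 8563 in the NIC libraries, 8745, 8352 and 8745 in NIC-Prmt1, 8786, 7719 and 7886 in NIC-Carm1, and 8618 and 8833 in NIC-Prmt6. The groups overlapped or lay close together, and NIC replicate 1 was the highest library. Itga6 differed from NIC by -0.06 ± 0.09 (adjusted p = 0.628) in NIC-Prmt1, -0.05 ± 0.10 (adjusted p = 0.757) in NIC-Prmt6 and -0.15 ± 0.09 (adjusted p = 0.306) in NIC-Carm1. Itgb4 (chromosome 11, 115974709 to 116008412, plus strand) had normalised read counts of 6991 and 7511 in the NIC libraries, 10452, 7922 and 7968 in NIC-Prmt1, 6527, 8232 and 7791 in NIC-Carm1, and 6344 and 6207 in NIC-Prmt6. NIC-Prmt1 replicate 1 was the highest library, and both NIC-Prmt6 values lay below all others. Itgb4 differed from NIC by 0.26 ± 0.14 (adjusted p = 0.179) in NIC-Prmt1, -0.21 ± 0.15 (adjusted p = 0.319) in NIC-Prmt6 and 0.05 ± 0.14 (adjusted p = 0.859) in NIC-Carm1, none of which passed. Itgb1, the beta subunit shared by most matrix receptors (chromosome 8, 128685654 to 128733200, plus strand), had normalised read counts of 13089 and 12902 in the NIC libraries, 15416, 13419 and 14020.5 in NIC-Prmt1, 10835, 11076 and 11724 in NIC-Carm1, and 13963 and 13802 in NIC-Prmt6. The 3 NIC-Carm1 values were the lowest of the 10, and the other groups lay close together. Itgb1 passed in no comparison with NIC, with 0.13 ± 0.10 (adjusted p = 0.309) in NIC-Prmt1, -0.21 ± 0.10 (adjusted p = 0.155) in NIC-Carm1 and 0.10 ± 0.10 (adjusted p = 0.506) in NIC-Prmt6. It was higher than in NIC-Carm1 by 0.35 ± 0.09 (adjusted p = 0.0156) in NIC-Prmt1 and by 0.31 ± 0.10 (adjusted p = 0.0281) in NIC-Prmt6. For Itgb1, the call of NIC-Prmt1 against NIC-Carm1 ended without NIC-Carm1 replicate 2, in a fit of the 2 groups alone and with the nearly identical libraries averaged (adjusted p from 0.0559 to 0.102), and that of NIC-Prmt6 against NIC-Carm1 ended without NIC-Carm1 replicate 2 or NIC-Prmt6 replicate 1 or 2 and with the nearly identical libraries averaged (adjusted p from 0.0789 to 0.246).

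The collagen-binding alpha subunits rose in part. Itga1 (chromosome 13, 114953096 to 115101964, minus strand), a collagen IV receptor subunit of stromal and vascular cells, had normalised read counts of 638 and 664 in the NIC libraries, 1586, 1228 and 1039 in NIC-Prmt1, 734, 906 and 793 in NIC-Carm1, and 1424 and 1441 in NIC-Prmt6. All 8 PRMT libraries were above NIC, with NIC-Carm1 closest to it. Itga1 was higher than in NIC by 1.14 ± 0.18 (adjusted p = 0.00132) in NIC-Prmt6 and 0.96 ± 0.16 (adjusted p = 0.00306) in NIC-Prmt1, both held in all 20 alternative fits, and differed by 0.31 ± 0.16 (adjusted p = 0.216) in NIC-Carm1. Itga11, the fibrillar collagen receptor subunit of fibroblasts (chromosome 9, 62677826 to 62783982, plus strand), had normalised read counts of 180.5 and 188 in the NIC libraries, 350.1, 354 and 313 in NIC-Prmt1, 154, 459 and 440.3 in NIC-Carm1, and 937 and 999 in NIC-Prmt6. Both NIC-Prmt6 libraries lay above all others, and NIC-Carm1 replicate 1 was the lowest of the 10 while replicates 2 and 3 lay above NIC-Prmt1. Against NIC, Itga11 rose by 2.38 ± 0.42 (adjusted p = 0.00229) in NIC-Prmt6, which held in all 20 alternative fits, and differed by 0.87 ± 0.38 (adjusted p = 0.107) in NIC-Prmt1 and 0.77 ± 0.38 (adjusted p = 0.196) in NIC-Carm1. The main fit did not call the NIC-Prmt1 and NIC-Carm1 differences, but 3 and 2 of the 20 alternative fits did. For NIC-Prmt1 against NIC-Carm1, the Itga11 difference was 0.10 ± 0.34 (adjusted p = 0.844), and without NIC-Carm1 replicate 1 it was -0.41. The latter fit leaves NIC-Carm1 with its nearly identical pair, which may stand for 1 sample, so no p-value is given for it.

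Itga10, a cartilage collagen receptor subunit (chromosome 3, 96645584 to 96664519, plus strand), had normalised read counts of 119 and 146 in the NIC libraries, 263, 205 and 209 in NIC-Prmt1, 200.5, 136 and 135 in NIC-Carm1, and 156 and 178 in NIC-Prmt6. NIC-Prmt1 lay above NIC, by 0.76 ± 0.22 (adjusted p = 0.0261), and NIC-Prmt6 lay just above NIC, at 0.34 ± 0.24 (adjusted p = 0.293). For Itga10, the NIC-Prmt1 call ended without NIC replicate 1 or 2 or NIC-Prmt1 replicate 1 and with the nearly identical libraries averaged (adjusted p from 0.0585 to 0.145). Itga2, whose alpha2 subunit binds collagen I on epithelium and platelets (chromosome 13, 114833081 to 114932100, minus strand), had normalised read counts of 487 and 346 in the NIC libraries, 822, 647 and 536 in NIC-Prmt1, 367, 322 and 318 in NIC-Carm1, and 354 and 323 in NIC-Prmt6. All 3 NIC-Prmt1 values stood above both NIC values, by 0.68 ± 0.20 (adjusted p = 0.027), and Itga2 differed from NIC by -0.28 ± 0.21 (adjusted p = 0.337) in NIC-Prmt6. Between the transgenic groups it was higher in NIC-Prmt1 than in NIC-Carm1 by 0.97 ± 0.18 (adjusted p = 0.00478). For Itga2, the call against NIC ended without NIC replicate 2 or NIC-Prmt1 replicate 1, in a fit of the 2 groups alone and with the nearly identical libraries averaged (adjusted p from 0.068 to 0.209), and the call against NIC-Carm1 held in all 20 alternative fits.

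Of the subunits that bind the RGD sequence of fibronectin and vitronectin, Itga5 showed the widest differences between the groups. Itga5, the alpha subunit of the fibronectin receptor (chromosome 15, 103344286 to 103366763, minus strand), had normalised read counts of 2384 and 2548 in the NIC libraries, 3591, 2548 and 2858 in NIC-Prmt1, 1544, 1639 and 1544 in NIC-Carm1, and 5214 and 5188 in NIC-Prmt6. The 2 NIC-Prmt6 values were the highest and the 3 NIC-Carm1 values the lowest of the 10, without overlap with any other group. Against NIC, Itga5 was higher in NIC-Prmt6 by 1.08 ± 0.14 (adjusted p = 0.00055), lower in NIC-Carm1 by -0.65 ± 0.13 (adjusted p = 0.0104), and 0.27 ± 0.13 (adjusted p = 0.136) in NIC-Prmt1. It stood 1.72 ± 0.13 (adjusted p = 3.8e-05) above NIC-Carm1 in NIC-Prmt6 and 0.91 ± 0.11 (adjusted p = 0.00141) above it in NIC-Prmt1. For Itga5, the NIC-Carm1 call against NIC ended without NIC replicate 1 or 2 and with the nearly identical libraries averaged (adjusted p from 0.054 to 0.0819), and the NIC-Prmt6 call against NIC and both calls against NIC-Carm1 held in all 20 alternative fits. Itgb1, the partner of Itga5, varied much less, as given above.

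Itga2b, the alpha subunit of the platelet fibrinogen receptor (chromosome 11, 102453297 to 102470122, minus strand), had normalised read counts of 231 and 218 in the NIC libraries, 277, 281 and 322 in NIC-Prmt1, 251, 269.8 and 262 in NIC-Carm1, and 521 and 419 in NIC-Prmt6. Both NIC-Prmt6 values were the highest, with 1.05 ± 0.15 (adjusted p = 0.000944) against NIC. Of 4 platelet markers tested, 1, Pf4, was higher in each of the 3 transgenic groups, and Gp9, Gp6 and Treml1 had no row in the table. The list summed to 1.39 to 1.40 CPM in NIC and 14.3 to 14.5 CPM in NIC-Prmt6. Pf4 rose by 4.2 in NIC-Prmt6, while Ppbp, Gp1bb and Gp5 differed from NIC by 1.82, 0.25 and -0.14, none called. Ppbp and Gp1ba were at 0 in some libraries, and the part of this list in the Itga2b values was not tested. Itgav, the alpha subunit with the most beta partners (chromosome 2, 83724397 to 83806916, plus strand), had normalised read counts of 3709 and 3141 in the NIC libraries, 3452, 3065 and 2627 in NIC-Prmt1, 2585, 2640.0 and 2561 in NIC-Carm1, and 3106 and 3254 in NIC-Prmt6. The NIC-Carm1 values lay below NIC, by -0.40 ± 0.12 (adjusted p = 0.0486), and overlapped with NIC-Prmt1 replicate 3. For Itgav, the NIC-Carm1 call ended without NIC replicate 1 or 2 or NIC-Prmt1 replicate 2 or NIC-Carm1 replicate 1 or 2 or 3 or NIC-Prmt6 replicate 1 or 2, with no filter, in a fit of the 2 groups alone, under TMM rescaling and with the nearly identical libraries averaged (adjusted p from 0.0501 to 0.28). Itga8, the nephronectin receptor subunit, ranged from 1551 to 3236 and was lower in NIC-Prmt6 by -0.58 ± 0.18 (adjusted p = 0.0264). For Itga8, this call ended without NIC replicate 1 or NIC-Prmt6 replicate 1 or 2, in a fit of the 2 groups alone and with the nearly identical libraries averaged (adjusted p from 0.0558 to 0.178).

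Itgb3, Itgb5, Itgb6 and Itgb8, which encode partners of alphav, were each lower in NIC-Prmt6 than in NIC, whereas Itgb1, another partner, did not pass. Itgb6, the epithelial subunit that activates latent TGF-beta (chromosome 2, 60598292 to 60722643, minus strand), had normalised read counts of 376 and 306 in the NIC libraries, 164, 263 and 205 in NIC-Prmt1, 267, 328 and 319 in NIC-Carm1, and 167 and 181 in NIC-Prmt6. NIC-Prmt6 and NIC-Prmt1 lay below both NIC values, and NIC-Carm1 overlapped with NIC. Itgb6 fell by 0.96 ± 0.22 (adjusted p = 0.00842) on the log2 scale in NIC-Prmt6 and by 0.71 ± 0.20 (adjusted p = 0.0266) in NIC-Prmt1. For Itgb6, the NIC-Prmt6 call ended without NIC replicate 1 or NIC-Prmt6 replicate 1 and with the nearly identical libraries averaged (adjusted p from 0.053 to 0.0825), and the NIC-Prmt1 call ended without NIC replicate 1 or 2 or NIC-Prmt1 replicate 1 or 3, in a fit of the 2 groups alone and with the nearly identical libraries averaged (adjusted p from 0.0563 to 0.157). Itgb8, another subunit that binds latent TGF-beta (chromosome 12, 119158022 to 119238802, minus strand), had normalised read counts of 680.4 and 584 in the NIC libraries, 569, 539.6 and 398 in NIC-Prmt1, 526, 503 and 506 in NIC-Carm1, and 406 and 371 in NIC-Prmt6. NIC was the highest group, and NIC-Prmt6 overlapped with NIC-Prmt1 replicate 3. Itgb8 differed from NIC by -0.70 ± 0.17 (adjusted p = 0.0108) in NIC-Prmt6, -0.34 ± 0.16 (adjusted p = 0.12) in NIC-Prmt1 and -0.30 ± 0.16 (adjusted p = 0.22) in NIC-Carm1. For Itgb8, the NIC-Prmt6 call ended without NIC replicate 1 or NIC-Prmt6 replicate 2 and with the nearly identical libraries averaged (adjusted p from 0.0642 to 0.0971).

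Itgb3, the vitronectin receptor subunit that marks luminal progenitors in the mammary gland, had normalised read counts of 2663 and 2669 in the NIC libraries, 1134, 2768 and 2267 in NIC-Prmt1, 3591, 3261 and 3349 in NIC-Carm1, and 1387 and 1412 in NIC-Prmt6. NIC-Prmt1 replicate 1 was the lowest library, NIC-Prmt6 came next, and NIC-Carm1 was the highest group. Itgb3 differed from NIC by -0.93 ± 0.31 (adjusted p = 0.041) in NIC-Prmt6, 0.35 ± 0.29 (adjusted p = 0.439) in NIC-Carm1 and -0.47 ± 0.29 (adjusted p = 0.234) in NIC-Prmt1, and from NIC-Carm1 by -1.28 ± 0.29 (adjusted p = 0.00691) in NIC-Prmt6. For Itgb3, the NIC-Prmt6 call against NIC ended without NIC replicate 1 or 2 or NIC-Prmt1 replicate 3 or NIC-Carm1 replicate 2 or 3 or NIC-Prmt6 replicate 1 or 2 and with the nearly identical libraries averaged (adjusted p from 0.0527 to 0.182). Itgb5, a vitronectin receptor subunit of epithelium, ranged from 4291 to 6259 and differed from NIC by -0.35 ± 0.12 (adjusted p = 0.045) in NIC-Prmt6. For Itgb5, this call ended without NIC replicate 2 or NIC-Prmt1 replicate 2 or NIC-Carm1 replicate 2 or 3 or NIC-Prmt6 replicate 1 or 2, in a fit of the 2 groups alone and with the nearly identical libraries averaged (adjusted p from 0.0527 to 0.302). Summed luminal markers were 9689 to 11703 CPM in NIC, 6692 to 9356 CPM in NIC-Prmt1, 6482 to 7656 CPM in NIC-Carm1 and 6226 to 6255 CPM in NIC-Prmt6, with 6 of 10 markers lower in NIC-Prmt6, 5 in NIC-Carm1 and 3 lower and 1 higher in NIC-Prmt1. None was at 0 in any library, and their part in the values of these beta subunits was not tested.

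**Figure D5:**
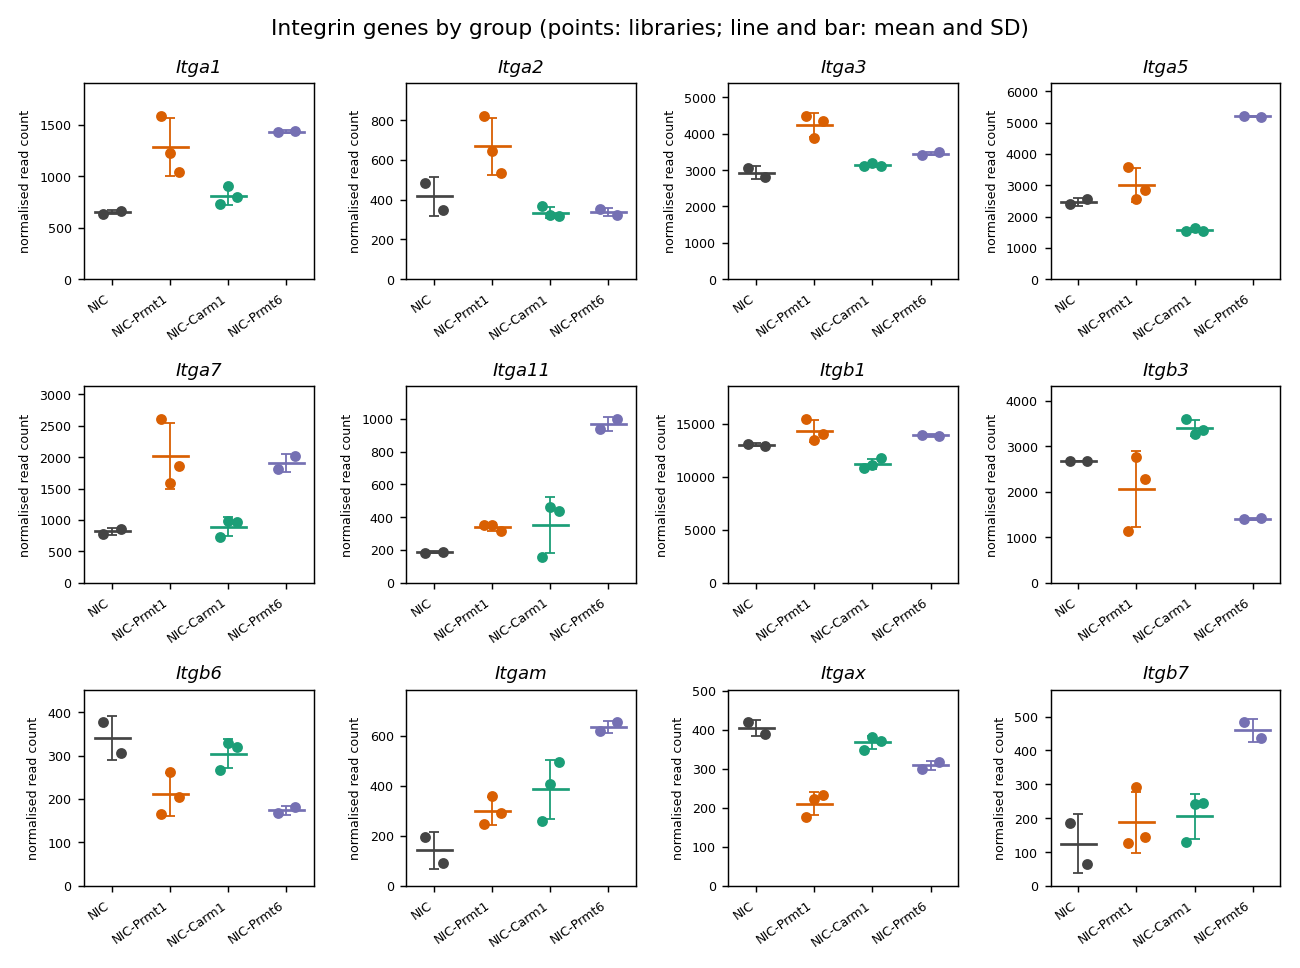
Normalised read counts of 12 integrin genes by group, with a point for each library and the mean and SD of each group. Itga5 is highest in NIC-Prmt6 and lowest in NIC-Carm1, Itga11, Itgam and Itgb7 are highest in NIC-Prmt6, and Itgax is lowest in NIC-Prmt1.

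The leukocyte integrins did not move as a block. Itgam, the alpha subunit of the complement receptor of macrophages and neutrophils (chromosome 7, 128062640 to 128118491, plus strand), had normalised read counts of 196 and 91.0 in the NIC libraries, 247, 360.4 and 291 in NIC-Prmt1, 258, 407 and 494 in NIC-Carm1, and 618 and 654 in NIC-Prmt6. All 8 PRMT libraries exceeded both NIC libraries, and the 2 NIC-Prmt6 values were the highest. Itgam rose by 2.24 ± 0.37 (adjusted p = 0.00171) in NIC-Prmt6, 1.48 ± 0.34 (adjusted p = 0.0181) in NIC-Carm1 and 1.14 ± 0.34 (adjusted p = 0.0292) in NIC-Prmt1, and the first of these held in all 20 alternative fits. For Itgam, the NIC-Carm1 call ended without NIC replicate 2 or NIC-Carm1 replicate 2 or 3, in a fit of the 2 groups alone and with the nearly identical libraries averaged (adjusted p from 0.0599 to 0.121), and the NIC-Prmt1 call ended without NIC replicate 2 or NIC-Prmt1 replicate 2 or 3, in a fit of the 2 groups alone and with the nearly identical libraries averaged (adjusted p from 0.0535 to 0.246). Itgb2, the beta subunit it shares with some other leukocyte alpha subunits (chromosome 10, 77530252 to 77565708, plus strand), had normalised read counts of 514 and 317 in the NIC libraries, 250.4, 488 and 353 in NIC-Prmt1, 469, 677 and 637 in NIC-Carm1, and 772 and 813 in NIC-Prmt6. NIC-Prmt6 was the highest group, and the NIC and NIC-Prmt1 values overlapped. Itgb2 differed from NIC by 0.97 ± 0.31 (adjusted p = 0.0338) in NIC-Prmt6, 0.54 ± 0.28 (adjusted p = 0.227) in NIC-Carm1 and -0.20 ± 0.28 (adjusted p = 0.616) in NIC-Prmt1. For Itgb2, the NIC-Prmt6 call ended without NIC replicate 2 or NIC-Prmt1 replicate 3 or NIC-Prmt6 replicate 1 or 2 and with the nearly identical libraries averaged (adjusted p from 0.0514 to 0.23).

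Itgax, the alpha subunit known from dendritic cells (chromosome 7, 128129547 to 128150657, plus strand), had normalised read counts of 419 and 390.0 in the NIC libraries, 177, 222 and 234 in NIC-Prmt1, 349, 382 and 372 in NIC-Carm1, and 301 and 316 in NIC-Prmt6. The NIC-Prmt1 values were the lowest of the 10 and overlapped with no group, while NIC-Prmt6 lay between them and the rest. It was lower in NIC-Prmt1 by -0.95 ± 0.14 (adjusted p = 0.002) against NIC and -0.81 ± 0.13 (adjusted p = 0.00303) against NIC-Carm1, and both calls held in all 20 alternative fits. Itgae, the E-cadherin binding subunit of lymphocytes and dendritic cells within epithelium (chromosome 11, 73090583 to 73147446, plus strand), had normalised read counts of 178 and 204 in the NIC libraries, 112, 160.5 and 96.1 in NIC-Prmt1, 143, 172 and 162 in NIC-Carm1, and 97.8 and 101 in NIC-Prmt6. NIC-Prmt6 and NIC-Prmt1 lay below both NIC values. Itgae differed from NIC by -0.93 ± 0.24 (adjusted p = 0.0141) in NIC-Prmt6 and -0.66 ± 0.22 (adjusted p = 0.0478) in NIC-Prmt1. For Itgae, the NIC-Prmt6 call ended without NIC replicate 2 or NIC-Prmt6 replicate 1 or 2 and with the nearly identical libraries averaged (adjusted p from 0.069 to 0.113), and the NIC-Prmt1 call ended without NIC replicate 1 or 2 or NIC-Prmt1 replicate 1 or 3 or NIC-Carm1 replicate 2 or 3 or NIC-Prmt6 replicate 1 or 2, in a fit of the 2 groups alone, with the nearly identical libraries averaged and by edgeR (adjusted p from 0.0568 to 0.213). Itgb7, the beta partner of alphaE and alpha4 (chromosome 15, 102215995 to 102231944, minus strand), had normalised read counts of 186 and 63.7 in the NIC libraries, 127, 292 and 146 in NIC-Prmt1, 129.5, 243 and 246 in NIC-Carm1, and 483 and 436 in NIC-Prmt6. It rose in NIC-Prmt6 by 2.06 ± 0.52 (adjusted p = 0.0128), and the 2 NIC libraries stood wide apart. For Itgb7, the NIC-Prmt6 call ended without NIC replicate 2 or NIC-Prmt6 replicate 1 or 2 and with the nearly identical libraries averaged (adjusted p from 0.0589 to 0.103).

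The lymphocyte subunit Itgal ranged from 140.0 to 496.7 and passed in no comparison with NIC, nor did Itga4, another lymphocyte subunit (74.1 to 207.2), or Itgad, the least abundant of the 38 (14.9 to 34.9). Itgal was lower in NIC-Prmt1 than in NIC-Carm1, by -1.18 ± 0.37 (adjusted p = 0.0383). For Itgal, this call ended without NIC-Prmt1 replicate 1 or 3 or NIC-Carm1 replicate 2 or 3 or NIC-Prmt6 replicate 1 or 2, with the nearly identical libraries averaged and by edgeR (adjusted p from 0.0522 to 0.149). Of the 10 macrophage markers, 9 were higher in NIC-Prmt6 than in NIC (691.6 to 708.1 CPM against 231.4 to 289.2 CPM), 3 in NIC-Carm1 (413.3 to 624.7 CPM) and 2 in NIC-Prmt1 (257.4 to 426.2 CPM). Marco differed from NIC by -4.23 in NIC-Prmt6, 3.69 in NIC-Carm1 and -2.33 in NIC-Prmt1, none called. The 2 in NIC-Prmt1 were Mrc1 (2.78) and Cd163 (4.26), and the others there, Marco aside, ranged from -0.09 to 0.24. All 7 mast cell markers were higher in NIC-Prmt6 (181.6 to 184.2 CPM) and NIC-Prmt1 (52.9 to 119.7 CPM), and 6 in NIC-Carm1 (42.2 to 109.8 CPM), than in NIC (6.05 to 13.6 CPM). None of 12 general leukocyte markers passed in limma in any of the 3 comparisons, nor at an unadjusted p under 0.05, by edgeR or by DESeq2. Their sums were 71.0 to 193.8 CPM in NIC, 66.8 to 191.3 CPM in NIC-Prmt1, 123.5 to 185.3 CPM in NIC-Carm1 and 145.4 to 148.2 CPM in NIC-Prmt6. No macrophage marker was at 0 in any library, Ms4a1 among the leukocyte markers and Fcer1a and Ms4a2 among the mast cell markers were at 0 in some, and the part of these lists in the values was not tested.

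Itga9, the receptor subunit for tenascin-C and osteopontin (chromosome 9, 118606690 to 118901003, plus strand), had normalised read counts of 889 and 737 in the NIC libraries, 1552, 1084 and 1126 in NIC-Prmt1, 639.8, 813 and 766 in NIC-Carm1, and 1178 and 1224 in NIC-Prmt6. NIC-Prmt1 and NIC-Prmt6 lay above NIC and NIC-Carm1. Itga9 was higher than in NIC by 0.61 ± 0.17 (adjusted p = 0.0227) in NIC-Prmt1 and 0.57 ± 0.18 (adjusted p = 0.035) in NIC-Prmt6. For Itga9, the NIC-Prmt1 call ended without NIC replicate 2, in a fit of the 2 groups alone and with the nearly identical libraries averaged (adjusted p from 0.0576 to 0.155), and the NIC-Prmt6 call ended without NIC replicate 2 or NIC-Prmt6 replicate 1 or 2 and with the nearly identical libraries averaged (adjusted p from 0.117 to 0.196). The secreted integrin beta-like gene Itgbl1 (chromosome 14, 123659971 to 123975618, plus strand) had normalised read counts of 504 and 467 in the NIC libraries, 521, 396 and 432 in NIC-Prmt1, 221, 273 and 275 in NIC-Carm1, and 678 and 686 in NIC-Prmt6. The 3 NIC-Carm1 libraries were the lowest and the 2 NIC-Prmt6 libraries the highest, without overlap with any other group. It was lower in NIC-Carm1 than in NIC, by -0.92 ± 0.15 (adjusted p = 0.00459), a call that held in all 20 alternative fits, and higher in NIC-Prmt6 by 0.49 ± 0.16 (adjusted p = 0.0389). For Itgbl1, the NIC-Prmt6 call against NIC ended without NIC replicate 1 or 2 or NIC-Prmt1 replicate 3 or NIC-Carm1 replicate 2 or 3 or NIC-Prmt6 replicate 1 or 2 and with the nearly identical libraries averaged (adjusted p from 0.0508 to 0.194). NIC-Prmt6 stood above NIC-Carm1 by 1.42 ± 0.15 (adjusted p = 0.000171) and NIC-Prmt1 above NIC-Carm1 by 0.81 ± 0.13 (adjusted p = 0.0035), and both calls held in all 20 alternative fits.

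Per kilobase of exon, the order of the integrin subunits was led in every group by Itgb1 (2939 ± 120.4 in NIC-Carm1 to 3745 ± 268 in NIC-Prmt1, mean ± SD, n = 3 each), followed by Itga6. Itgb1 held 41.3% to 54.8% of the summed beta class, and Itga6 held 32.4% to 44.8% of the summed alpha class. Itga5 held 7.83% to 8.35% of the alpha class in NIC-Carm1, 10.6% to 13.2% in NIC and NIC-Prmt1, and 19.9% and 19.4% in NIC-Prmt6. Itgb3 held 8.01% to 9.69% of the beta class in NIC-Carm1, 6.75% and 6.50% in NIC, 2.55% to 6.62% in NIC-Prmt1, and 3.59% and 3.68% in NIC-Prmt6. The beta class as a whole ranged only from 6405 to 7687 counts per kilobase over the 10 libraries.

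Other parts of the adhesion machinery are given for context. Their counts stand beside the shares of all genes tested. These were 15.2% higher and 14.4% lower in NIC-Prmt1, 6.65% and 9.36% in NIC-Carm1, and 19.0% and 17.8% in NIC-Prmt6. Of 22 further basement membrane components and laminin receptors, 15 were higher and 2 lower in NIC-Prmt1 than in NIC, 3 and 1 in NIC-Carm1, and 13 and 2 in NIC-Prmt6, with median log2 fold changes of 0.66, 0.05 and 0.70. Nid1, the nidogen that links laminin to collagen IV, differed from NIC by 0.91 ± 0.10 (adjusted p = 0.000611) in NIC-Prmt1, 0.44 ± 0.10 (0.0189) in NIC-Carm1 and 2.33 ± 0.11 (2.04e-05) in NIC-Prmt6. The related Nid2 differed by 1.08 ± 0.13 (0.000854), 0.03 ± 0.13 (0.908) and 1.47 ± 0.14 (0.000139) in the same order. Sdc4, a heparan sulfate coreceptor of adhesion sites, was lower in all 3, by -1.24 ± 0.20, -1.08 ± 0.20 and -1.62 ± 0.22 (0.00267, 0.00802 and 0.000682). Col17a1 and Npnt were chosen after their values were seen. Col17a1, the hemidesmosomal collagen, rose by 1.66 ± 0.20 (adjusted p = 0.000879) in NIC-Prmt1 and differed by 0.25 ± 0.22 (0.404) in NIC-Prmt6. Skin keratinocyte markers summed to 6.77 to 986.8 CPM in NIC-Prmt1 and 2.41 to 4.04 CPM in NIC. Their part in the Col17a1 values was not tested, and no alternative fit is given for Col17a1. Npnt, which encodes nephronectin, the ligand of the Itga8 product, fell by 1.96 ± 0.44 (adjusted p = 0.00993) on the log2 scale in NIC-Prmt1 and by 2.59 ± 0.48 (0.00303) in NIC-Prmt6.

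Of 21 integrin ligands other than laminins, 9 were higher and 3 lower in NIC-Prmt1, 2 and 5 in NIC-Carm1, and 12 and 1 in NIC-Prmt6, with medians of 0.63, -0.20 and 0.79. Fn1, the fibronectin bound by the Itga5 product, differed from NIC by 2.75 ± 0.29 (adjusted p = 0.000227) in NIC-Prmt6, 0.89 ± 0.27 (0.0318) in NIC-Prmt1 and 0.48 ± 0.27 (0.25) in NIC-Carm1. Fbn1, the microfibril protein fibrillin, rose by 1.24 ± 0.12, 0.69 ± 0.12 and 1.84 ± 0.13 in NIC-Prmt1, NIC-Carm1 and NIC-Prmt6 (0.000371, 0.00584 and 5.38e-05). Cdh1, the E-cadherin bound by the Itgae product, was lower in the same groups by -0.75 ± 0.12, -0.80 ± 0.12 and -0.79 ± 0.13 (0.00248, 0.00341 and 0.00185), and is also one of the luminal markers. Of 28 genes of the integrin adhesion complex, 7 were higher and 4 lower in NIC-Prmt1, none higher and 7 lower in NIC-Carm1 (limma), and 9 higher and 5 lower in NIC-Prmt6, with medians of 0.12, -0.13 and 0.21. In NIC-Carm1 none was higher at an unadjusted p under 0.05, by edgeR or by DESeq2 either. Fermt2, the integrin activator kindlin-2, was lower in all 3 by -0.71 ± 0.09, -0.68 ± 0.09 and -0.60 ± 0.09 (0.000879, 0.00176 and 0.00148).

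Among the 15 genes higher in NIC-Prmt6 than in NIC-Carm1, the largest differences were those of Lama2 (2.17 ± 0.17 (adjusted p = 3.99e-05)), Lamc3 (1.87 ± 0.40 (adjusted p = 0.00548)), Itga5 and Itga11. Among the 17 higher in NIC-Prmt1 than in NIC-Carm1 were Lama3 (1.11 ± 0.19 (adjusted p = 0.00389)) and Itga7 (1.16 ± 0.18 (adjusted p = 0.00281)). The 4 genes higher in NIC-Prmt1 than in NIC-Prmt6 included Lama3, Itga2 and Itga8, and the largest differences among the 10 lower ones were those of Itga11 at -1.51 ± 0.38 (adjusted p = 0.0407), Lama2 at -1.29 ± 0.17 (adjusted p = 0.00309) and Itgb2 at -1.17 ± 0.28 (adjusted p = 0.0361). Each of these 14 calls ended without NIC-Prmt6 replicate 1, without replicate 2, and with the nearly identical libraries averaged, when limma left none, although 7 genes were higher and 11 lower at an unadjusted p under 0.05 in the averaged fit. Of the calls against NIC-Carm1, 10 of 21 in NIC-Prmt1 and 8 of 20 in NIC-Prmt6 held in all 20 alternative fits. Averaging ended 11 and 12 of them, leaving out NIC-Carm1 replicate 2 ended 5 and 4, replicate 3 ended 4 and 3, and leaving out NIC-Prmt6 replicate 1 or 2 ended 9 or 8 of the NIC-Prmt6 calls.

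Exons of 11 of the 38 genes overlap those of another GENCODE gene, among them Lama2, Lama3, Lamc3 and Itga7 on the opposite strand and Itga1, Itga10 and Itgam on the same strand. No source used here gives the strand setting of the counting, so reads of these pairs cannot be told apart.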

How the data were processed

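RNA was sequenced from mammary epithelial cells in 10 libraries of 4 genotypes. The submitters' processing notes name TopHat2 2.0.10, the mm10 build, HTSeq 0.6.0 and DESeq 1.18.0. The sources used here give neither the annotation nor the strand setting. The deposited signal is the read count of a gene divided by a size factor per library, since 100% of values in each column were whole multiples of a single step within a tolerance of 0.01. Multiplying by that factor gave 21589274 to 30260921 reads per library, at which depth counting noise bears on Itgad and few other genes of the set.

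The members and gene lists were chosen with earlier results of these data known. One gene of the set is in the counts and fits but is not reported here, and the other 37 are named. Library values are given for Lama3 and Lamb3, the alpha6 beta4 integrin, the vascular laminins and Itgb1, and for the 2 members of each role group with the smallest adjusted p in each comparison with NIC. Values of Itgb3 and Itga2 were added after they were seen.

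The test was limma-trend (limma 3.58.1, R 4.3.3) on log2(value + 1) for 15694 genes that reached 10 in 2 or more libraries. The fit held 4 group means over the 10 libraries, with 6 residual degrees of freedom and Benjamini-Hochberg adjustment over all genes tested and a threshold of 0.05. Fold changes are on that log2 scale, ± the standard error, and every adjusted p is from limma unless another tool is named. The fit was also run on simulated data, but with independent libraries and no nearly identical pairs, so no conclusion is drawn from it here. The 20 alternatives were edgeR 4.0.16 and DESeq2 1.42.0 on recovered reads, TMM rescaling, pseudocounts of 0.5 and 5, no filter, a stricter filter (50), the 2 groups alone, a replicate block, averaging of nearly identical libraries, and leaving out each of the 10 libraries. The settings listed beside a gene as ending its call leave out the replicate block, which is given in the closing section. Counts per kilobase used exon lengths of GENCODE on GRCm38. Marker sums are CPM of recovered reads. No protein sequence was used here.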

Additional observations from a re-analysis of the deposited data

How the results depend on the processing

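Of the 102 calls of the 38 genes in the 6 comparisons, 38 held in all 20 alternatives, namely 8 of 19 for NIC-Prmt1 against NIC, 2 of 5 for NIC-Carm1 against NIC, 10 of 23 for NIC-Prmt6 against NIC, 10 of 21 and 8 of 20 for NIC-Prmt1 and NIC-Prmt6 against NIC-Carm1, and 0 of 14 for NIC-Prmt1 against NIC-Prmt6. With the nearly identical libraries averaged, limma called 9 higher and 1 lower in NIC-Prmt1 and 1 and 1 in NIC-Carm1 against NIC, 10 and 0 in NIC-Prmt6 against NIC, 9 and 1 in NIC-Prmt1 and 8 and 0 in NIC-Prmt6 against NIC-Carm1, and 0 and 0 for NIC-Prmt1 against NIC-Prmt6. At an unadjusted p under 0.05 those 4 counts of 0 were 4 lower and 3 lower for NIC-Prmt6 against NIC and against NIC-Carm1, and 7 higher and 11 lower for NIC-Prmt1 against NIC-Prmt6. In the fit of the 2 groups alone, 1 gene was lower in NIC-Prmt1 and 1 higher in NIC-Carm1 against NIC, and 2 were lower in NIC-Prmt1 against NIC-Carm1. By edgeR, 1 was lower in NIC-Prmt1 against NIC-Carm1, and by DESeq2, 8 were higher in NIC-Prmt1 against NIC-Prmt6. Differences that the main fit did not call passed in an alternative, with the same sign, 70 times over genes, comparisons and alternatives. The share of all genes called was not computed for any alternative fit. The counts of this section therefore stand without such a share.

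Leaving out 1 library gave 7 to 19 higher and 1 to 3 lower for NIC-Prmt1 against NIC, 1 to 3 higher and 1 to 3 lower for NIC-Carm1 against NIC, and 10 to 18 higher and 1 to 7 lower for NIC-Prmt6 against NIC. Between transgenic groups it gave 15 to 20 higher and 1 to 6 lower for NIC-Prmt1 against NIC-Carm1, 11 to 16 higher and 0 to 6 lower for NIC-Prmt6 against NIC-Carm1, and 0 to 7 higher and 0 to 11 lower for NIC-Prmt1 against NIC-Prmt6. The counts of 0 came from leaving out a NIC-Prmt6 library, which leaves that group with a single library assumed to vary like the others, and those fits gave 6 or 7 higher and 11 or 12 lower for NIC-Prmt1 against NIC-Prmt6, and 3 lower for NIC-Prmt6 against NIC-Carm1, at an unadjusted p under 0.05. Changes of sign were counted only where the main fit or the alternative called the difference, so those of uncalled differences are left out. By that count 1 difference turned: Itga11 in NIC-Prmt1 against NIC-Carm1 was 0.10 with all libraries and -0.41 without NIC-Carm1 replicate 1. Leaving that library out leaves NIC-Carm1 with its nearly identical pair. The Itga11 difference was between -0.41 and 0.38 over the libraries left out, and the cause was not tested.

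No pairing by replicate number was seen, as the deviations of same-numbered libraries from their group means correlated at -0.132 to 0.10. With groups of 2 or 3 libraries, and pairs that hardly differ, such correlations cannot exclude pairing. The replicate block ended 4 of 19 calls for NIC-Prmt1 against NIC (Lama4, Lamb2, Itgam and Itgae), 2 of 5 for NIC-Carm1 against NIC (Itgav and Itgam), 4 of 23 for NIC-Prmt6 against NIC (Itga9, Itgb3, Itgb2 and Itgbl1), 3 of 21 and 2 of 20 for NIC-Prmt1 and NIC-Prmt6 against NIC-Carm1 (among them Itgal and Itgb1), and 5 of 14 for NIC-Prmt1 against NIC-Prmt6, with adjusted p from 0.05 to 0.108. With the replicate block, 1 gene was higher in NIC-Carm1 against NIC, 1 lower in NIC-Prmt1 against NIC-Carm1, and 5 lower in NIC-Prmt1 against NIC-Prmt6. Groups of 2 or 3 libraries limit the precision, and read depth limits it for Itgad (14.9 to 34.9).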
